A study of Mus musculus with 60 samples.

Results

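Cells lacking Tet1 (KO) and wild-type cells (WT) were compared at day 5 of anterior neural differentiation under the Wnt inhibitor XAV939 (XAV), by where the histone mark H3K27me3 lay, how wide its peaks were and how they ranked within each library. The comparison held 4 of the 60 samples of the series, and 4 of its 30 H3K27me3 samples: the KO lines KO1 and KO15 and the WT lines WT70 and WT72, with 1 library per line. All 4 lines were mouse embryonic stem cells labelled B6129S6F1 Tet1<tm1Koh>, differentiated with bFGF for the first days and given 5 µM XAV from day 2 on. The lines are the replicates, so n = 2 per genotype. According to the methods of the study, the KO lines were male and derived from blastocysts. The genetic background of KO1 and KO15 is characterised there, whereas that of WT70 and WT72 is not given in the sources used here, so that genotype and line background cannot be told apart. The labels name the cell type as mouse embryonic stem cell in all 4, although the cells had left that state in the protocol.

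H3K27me3 is deposited by Polycomb repressive complex 2, mostly over CpG-rich promoters of developmental genes that are silent in a given cell. TET1 is a dioxygenase that oxidises 5-methylcytosine and binds the same kind of promoters, and it also has functions that do not need its catalytic activity. XAV stabilises Axin and so lowers canonical Wnt signalling, which otherwise draws differentiating stem cells towards the primitive streak and posterior fates. In CUT&RUN an antibody tethers a nuclease that releases the chromatin carrying the mark, and enriched stretches are called as peaks against a control library made with IgG. A peak shows that the mark was enriched over the control and does not measure transcription.

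Promoters of marker genes were called in similar numbers in the 4 libraries. Peaks covered 7 of 10 forebrain markers in each KO line and 6 of 10 in each WT line, and Sox2, Otx2 and Hesx1, which forebrain progenitors use, had no peak in any of the 4. In every line 5 of 7 mesoderm markers and 3 of 4 endoderm markers carried a peak. Of the pluripotency markers 2 of 4 did, namely Pou5f1 and Esrrb. Peaks cannot show which cell types were present.

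KO libraries held more and wider peaks. KO1 had 1729 peaks over 13.5 Mb and KO15 had 2461 over 18.2 Mb, while WT70 had 1407 over 9.19 Mb and WT72 had 1717 over 9.49 Mb. The covered length did not overlap between the genotypes and was 1.68 times higher in KO (15.9 ± 3.33 Mb in KO and 9.34 ± 0.217 Mb in WT, SD, n = 2). Peak numbers did not overlap either, but KO1 and WT72 differed by few peaks. Median peak widths were 5873 bp in KO1, 5643 bp in KO15, 5095 bp in WT70 and 4304 bp in WT72. An exact permutation test of 2 lines against 2 cannot go below p = 0.333, and each of these measures gave that value (two-sided). Read depth is unknown from the peak files and can change how many peaks are called, and its part in these differences was not tested. Covered bases were shared at 66.9% of their union between the KO lines and at 69.6% between the WT lines, against 47.8% and 48.7% between KO15 and WT70 or WT72 and 58.98% between KO1 and WT70, with nearly the same share between KO1 and WT72. Peaks of the WT lines lay almost wholly inside KO15 peaks, which contained 96.5% of the WT70 bases and 95.7% of the WT72 bases.

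Promoters from the regions that differed in presence are printed first. They are the genes leading the regions called in both KO lines and neither WT line for which the RefSeq promoter table (GRCm38.p6) has an entry inside the region, and the first such gene of the opposite pattern. Of 21 genes at the regions named below, 14 had an entry. Each line gives the 250 bases before the annotated start, on the strand of the gene, with every CG dinucleotide in capitals. The windows are chr13:120027380-120027629 (minus strand, Gm36079), chr14:46390670-46390919 (minus strand, Bmp4), chr13:51846425-51846674 (plus strand, Gadd45g) and chr11:102101320-102101569 (minus strand, Ppy).
Gm36079: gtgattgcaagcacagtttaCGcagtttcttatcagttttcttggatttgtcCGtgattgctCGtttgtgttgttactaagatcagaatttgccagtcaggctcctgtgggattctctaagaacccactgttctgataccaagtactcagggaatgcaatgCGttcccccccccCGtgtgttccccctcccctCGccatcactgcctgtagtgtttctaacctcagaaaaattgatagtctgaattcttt
Bmp4: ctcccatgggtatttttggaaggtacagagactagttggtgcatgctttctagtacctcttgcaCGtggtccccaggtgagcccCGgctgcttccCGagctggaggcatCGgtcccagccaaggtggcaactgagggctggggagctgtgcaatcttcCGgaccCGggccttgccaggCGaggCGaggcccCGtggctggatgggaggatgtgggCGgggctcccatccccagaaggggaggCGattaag
Gadd45g: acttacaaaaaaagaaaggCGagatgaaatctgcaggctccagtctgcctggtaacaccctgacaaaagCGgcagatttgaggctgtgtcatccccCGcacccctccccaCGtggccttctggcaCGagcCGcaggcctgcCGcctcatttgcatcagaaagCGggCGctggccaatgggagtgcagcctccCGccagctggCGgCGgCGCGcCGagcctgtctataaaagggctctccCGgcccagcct
Ppy: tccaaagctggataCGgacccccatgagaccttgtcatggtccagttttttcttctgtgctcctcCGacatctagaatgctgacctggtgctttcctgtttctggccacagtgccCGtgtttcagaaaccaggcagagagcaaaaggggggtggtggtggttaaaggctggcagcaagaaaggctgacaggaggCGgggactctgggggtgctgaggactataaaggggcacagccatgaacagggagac

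The Gm36079 window lies in a region of near-identical repeats, where reads could not be placed with certainty. The first 3 lay under peaks of both KO lines only and held 6, 11 and 16 CG dinucleotides, and the Ppy window, which lay in a region called in both WT lines only, held 4. Over the 204 promoters called in both KO and neither WT line that had an entry, the median was 16.5 CG in 250 bases, against 16 for the 750 promoters called in all 4 lines and 10 for all 16515 matched promoters. At least 10 CG were found in 74.0% of the first set and in 52.1% of all promoters. The medians of promoters called in KO only and in every line lay close together, and no test was made of them.

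Peaks of all 30 H3K27me3 libraries were merged into 4512 regions, and the 3828 regions called in at least 2 libraries were kept. Of these, 1117 were called in all 4 day 5 XAV libraries and 1435 in none of them. In both KO lines and neither WT line 289 regions were called, which is 7.55% of the kept regions. The opposite pattern, both WT lines and neither KO line, held 16 regions or 0.418%. KO15 alone accounted for 555 further regions, KO1 alone for 16, WT72 alone for 22 and WT70 alone for 8.

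**Figure D1:**
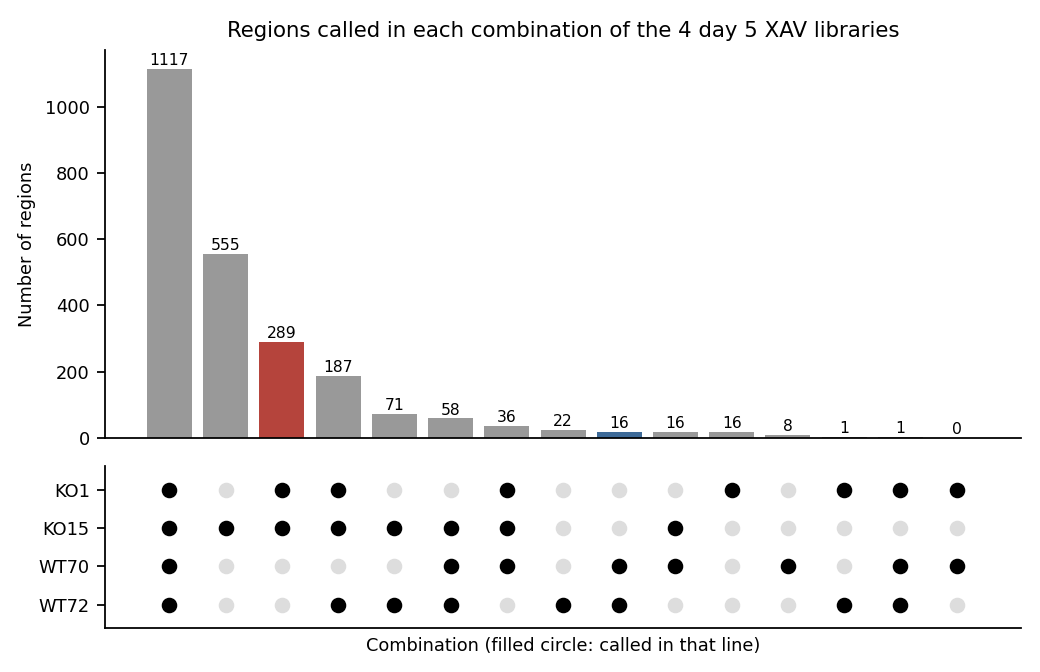
Number of kept regions (vertical axis) called in each combination of the 4 libraries, with filled circles for the lines that had a peak. Regions called in both KO lines only (289, red) outnumbered those called in both WT lines only (16, blue), and 555 regions were called in KO15 alone.

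The regions called only in KO were mostly weak peaks. Each peak was given its percentile by total signal among all peaks of its own library, from 0 for the weakest to 100 for the strongest. The median percentile of the 289 regions was 18.9 in KO1 and 39.7 in KO15, and 23 of them (7.96%) in KO1 and 73 (25.3%) in KO15 lay in the upper 50 percentiles. Regions called in all 4 lines had medians of 64.6 in KO1 and 75.6 in KO15. Promoters of protein-coding genes, taken as 1.5 kb to either side of a start site, lay in 240 of the 289 regions (83.0%), in 6 of the 16 opposite ones (37.5%) and in 78.2% of all kept regions. Their median GC content of 49.0% and their 22.9 CpG per kb were close to the 50.7% and 23.8 per kb of the regions shared by all 4 lines.

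Leading this group by mean percentile over both KO lines was a region on chromosome 13 at the predicted genes Gm21188 and Gm36079, with 19273 bp covered in KO1 and 20628 bp in KO15. Of 50-letter stretches taken from it, 70.7% occurred again within 2.5 Mb, against at most 1.28% for the other named regions, so its reads could not be placed with certainty. The second was at Bmp4, a ligand that patterns mesoderm and opposes neural induction (chr14:46379338-46400248), where peaks covered 8170 bp in KO1 and 13581 bp in KO15 at percentiles 70.3 and 85.7. Gadd45g, a stress-inducible gene that is active in early neuronal differentiation, followed with 12290 bp and 18494 bp at percentiles 71.1 and 82.7. At Scrt2, which encodes a zinc-finger repressor of the neural lineage, 12013 bp and 11157 bp were covered in the KO lines. Neither WT line had a peak in any of these 4 regions.

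The other named regions covered genes of transcription, signalling and the cell cycle. Nr2f1 encodes a nuclear receptor that patterns the cortex, and a region that reaches within 1.5 kb of its start was covered over 12998 bp in KO1 and 11516 bp in KO15. Ets1, an ETS-family factor, had 8803 bp and 17184 bp, although the KO1 peak did not reach the 1.5 kb around its start sites, and it was the only one of the 12 with no peak in any of the 4 KO and WT libraries at day 5 without XAV. Bcor, a subunit of a Polycomb repressive complex 1 variant, had 9787 bp and 10865 bp. Ccnd2, which encodes cyclin D2, had 11300 bp and 6318 bp. Shisa7, an auxiliary subunit of neurotransmitter receptors, had 12387 bp and 11832 bp. Fads3, Abtb2 and Arhgef7, of which the last encodes an exchange factor for Rac and Cdc42, completed the 12 at mean percentiles of 66.4, 61.9 and 57.4.

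In the opposite direction 6 regions overlapped a promoter, of which 5 are described here. They lay at Sfi1, which encodes a centrosomal protein, Ppy and Pyy, which encode gut and pancreatic peptides, the homeobox gene Nkx2-6, Hmcn2, which encodes an extracellular matrix protein, and Sez6, which acts at synapses. Their mean percentiles in WT ranged from 15.1 at Sez6 to 42.5 at Sfi1, and Sfi1 rested on a wide peak in WT72 (percentile 81.0) beside a weak one in WT70 (3.98).

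The counts depended on how many peaks each library contributed. With the 1407 strongest peaks of each library, 150 regions were called in both KO lines only and 71 in both WT lines only. Of the 289 regions 96 (33.2%) kept their pattern, and of the 16 opposite ones 13 did. KO1 and WT72 held nearly the same number of peaks, and between these libraries alone, a comparison chosen after the values were seen, 341 regions were called in KO1 only and 167 in WT72 only. Leaving out a line can only raise such counts, because fewer lines must meet the pattern. Without KO1 the first count was 844 regions, as it took in the 555 called in KO15 alone, and without WT72 it was 476. Without KO15 the opposite count rose to 74, and without WT70 to 38.

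The same lines were also sampled at day 5 without XAV. By the study's single-cell data, KO cells there were mainly mesoderm and endoderm and WT cells mainly neural ectoderm. With XAV most cells of both genotypes had forebrain identity. The part of cell type in the comparisons with and without XAV was not tested. Of the 289 regions 59.9% were called in KO1 and 75.4% in KO15 there, against 50.1% and 62.6% of all kept regions. In WT70 5.54% and in WT72 15.6% were called, against 27.5% and 31.1% of all kept regions. The full pattern of both KO and neither WT line was shared by 126 regions, which is 43.6% of the 289 and 16.7% of the 754 regions with that pattern without XAV. No peak was called without XAV in any of the 4 libraries at 63 of the 289. Under XAV the 2 lines with catalytically inactive TET1 differed from each other, with peaks at 3 of the 289 regions (1.04%) in CM59, a library of 704 peaks, and at 184 (63.7%) in CM69, which had 1924. Of all kept regions 17.4% were called in CM59 and 46.4% in CM69.

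Region lists deposited by the study were compared with the regions called in both KO lines only. The deposited gains in KO under XAV held 266 of the 289 (92.0%), against 49.3% of all kept regions, but that list was selected on these same 4 libraries and is not independent evidence. The 266 were 14.1% of the kept regions in that list. Of the lists made without XAV, the regions that did not differ on day 0 and gained the mark later held 132 of the 289 (45.7%, against 37.3% of all kept regions). The regions that lost the mark on day 0 and gained it by day 5 held 72 (24.9%, against 19.5%), and those that lost it on day 0 and recovered without a later gain held 51 (17.6%, against 20.5%). None of these differences in share was tested, and KO and WT lines of the present comparison were also sampled without XAV.

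Promoters of whole gene groups were then counted by line. Over the 3177 promoters called in at least 2 of 30 libraries, 48.9% had a peak in KO1, 66.4% in KO15, 36.6% in WT70 and 41.9% in WT72. Of these, 970 (30.5%) were called in more KO than WT lines and 63 (1.98%) in fewer, and 269 (8.47%) were called in both KO and neither WT line, against 8 (0.252%) with the reverse. In 13 of 16 gene lists the mean share was higher in KO. The counts below describe the lists and were not tested. They are to be read against these shares over all promoters, although the lists count all their genes.

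Genes of Nodal and BMP signalling, which steer cells away from neural fate, had the widest gap between the genotypes. Their promoters were called at 48.6% in KO1 and 60.0% in KO15, against 25.7% in WT70 and 34.3% in WT72, so both KO lines lay above both WT lines. The means differed by 24.3 percentage points, against 18.4 over all promoters called in at least 2 libraries. With equal peak numbers the gaps were 20.0 and 5.19. Of 35 genes 13 were called in more KO than WT lines and 0 in fewer, beside 30.5% and 1.98% of all promoters. Bmp4, Inhba, which encodes an activin subunit, Nog, a secreted BMP antagonist, and Tdgf1, the Nodal co-receptor, had peaks in both KO lines and neither WT line. At the Nog promoter the peak reached percentile 32.5 in KO1 and 68.5 in KO15.

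Neural progenitor and forebrain factors were called at 71.9% in KO1 and 78.1% in KO15, against 59.4% in WT70 and 53.1% in WT72. The means differed by 18.75 percentage points, close to the 18.4 over all promoters. With equal peak numbers the gaps were 15.6 and 5.19. Of 32 genes 11 were called in more KO lines and 1 in fewer, beside 30.5% and 1.98% of all promoters. Fezf1, a forebrain zinc-finger factor, and Zic5 were called in both KO lines only, although WT peaks lay elsewhere in the region shared by Zic2 and Zic5. Fezf1 lay at percentiles 65.3 and 62.1. The promoters of Pou3f3, a POU factor of neural progenitors, and Nr2f1 were also called in 1 WT line each. At Pou3f3 the strongest peak reached percentiles 97.4 and 97.8 in KO1 and KO15 and 56.4 in WT72, and at Nr2f1 96.5 and 97.3 in the KO lines and 4.05 in WT70.

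Neuronal gene lists are to be read against the 30.5% of all promoters that were called in more KO than WT lines, a share over promoters called in at least 2 libraries, whereas the lists count all their genes. The counts of these lists lay below it. Of 82 neurotransmitter receptors and transporters 24 were called in more KO lines and 2 in fewer. Glra1, a glycine receptor subunit, and the metabotropic glutamate receptors Grm4 and Grm3 were called in both KO lines only, whereas Slc17a6, the vesicular glutamate transporter VGLUT2, was called in both WT lines only, at percentiles 57.2 and 69.6. Of 49 voltage-gated ion channels 10 were called in more KO lines and 0 in fewer, led by the potassium channels Kcna3, Kcnd2 and Kcnb2 and the calcium channel Cacna1a. Of 49 axon guidance genes 10 were called in more and 1 in fewer, with Efnb1, an ephrin ligand, Draxin and the netrin receptor Unc5c in both KO lines only. KO1 (42.9%) lay close to WT72 (40.8%) in this last list. With equal peak numbers the gap between the genotype means shrank from 17.1 to 4.27 percentage points for neurotransmitter genes, from 14.3 to 8.16 for ion channels and from 12.2 to 6.12 for axon guidance genes.

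Regulators of cell fate were counted in the same way. Neuron specification factors were called at 94.0% in both KO lines, 86.0% in WT70 and 90% in WT72. Isl1, a LIM homeobox factor of motor neurons, and Neurod1, a proneural factor, had promoter peaks in both KO lines only. Mesoderm regulators stood at 79.1%, 83.7%, 74.4% and 79.1% in KO1, KO15, WT70 and WT72. Nr2f2, a nuclear receptor of mesenchyme and veins, and Prrx2 had promoter peaks in both KO lines only. At Nr2f2 WT peaks lay in the same region but did not reach the 1.5 kb around its start sites. Primitive streak and endoderm regulators had 64.0% in each WT line and 72.0% and 76.0% in KO1 and KO15, with Ripply2 in both KO lines only. Pluripotency factors stood at 43.2% ± 9.64 in KO and 27.3% ± 6.43 in WT (SD, n = 2), a gap of 15.9 percentage points against 18.4 over all promoters. Of 22 genes 6 were called in more KO lines and 0 in fewer, beside 30.5% and 1.98% of all promoters, with Klf5 in both KO lines only. Neural crest and surface ectoderm regulators had 4 of 19 in more, such as Grhl2 and Grhl3, and 1, Sox10, in fewer, beside the same 30.5% and 1.98%.

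The remaining lists showed little difference. Wnt pathway genes, the pathway that XAV acts on, were called at 38.5% in KO1, 47.7% in KO15, 33.8% in WT70 and 43.1% in WT72, so the genotypes overlapped. Of 65 genes 6 were called in more KO lines and 1 in fewer, beside 30.5% and 1.98% of all promoters. The gene called in fewer was Rspo1, a secreted Wnt enhancer. Nkd2, an intracellular Wnt antagonist, was called in both KO lines only. Midbrain, hindbrain and caudal neural factors were near saturation at 91.7% to 100% in the 4 lines, with Irx5 in 1 KO and 2 WT lines. No housekeeping or germline promoter among 25 and 20 genes had a peak in any line.

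**Figure D2:**
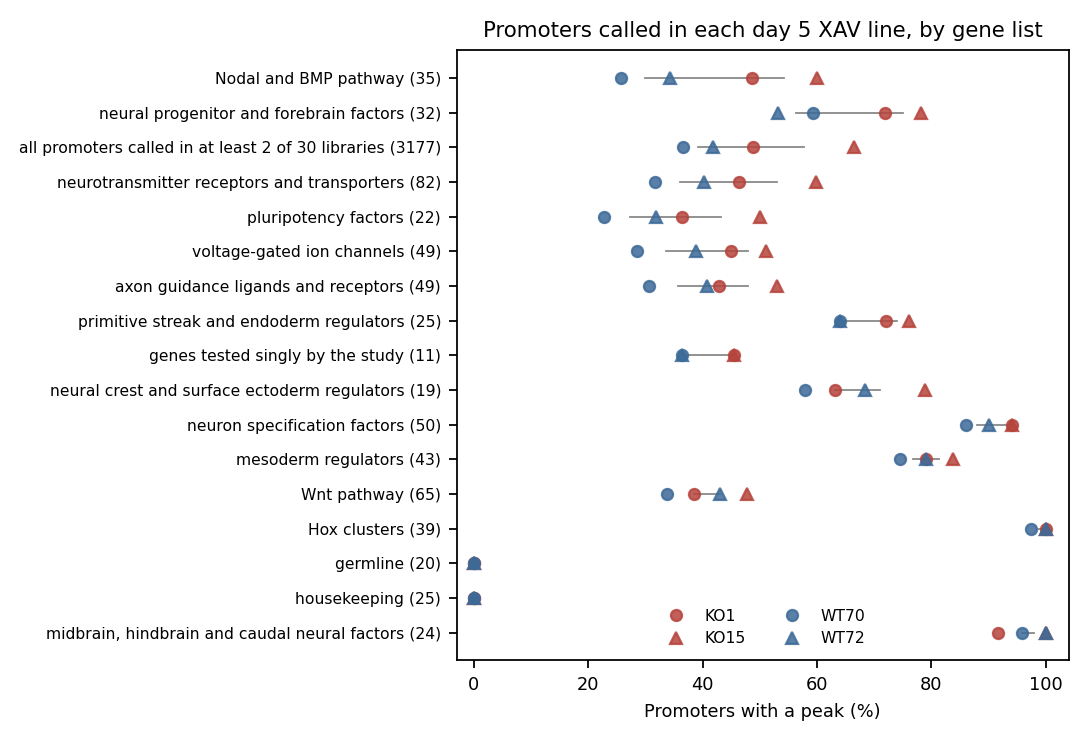
Share of promoters with a peak (horizontal axis, %) in each of the 4 libraries for 16 gene lists and for all promoters called in at least 2 of 30 libraries, with the number of genes in brackets and a grey line between the genotype means. The gap was widest for Nodal and BMP genes (30.0% in WT and 54.3% in KO), and the lines overlapped for Wnt pathway genes.

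Shared regions were wider in KO. The width of a region was the length covered by peaks within it, compared on the log2 scale over the 1117 regions called in all 4 lines. Medians were 6706 bp in KO1, 7500 bp in KO15, 5373 bp in WT70 and 4913 bp in WT72. The median difference was 0.38 (KO minus WT, log2), a 1.30-fold greater width, and 1044 of the 1117 regions (93.5%) had a difference above 0. KO1 against WT72 alone, with nearly equal peak numbers, gave a median difference of 0.37 over 1306 regions. Differences of single regions are to be read against this general shift.

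By limma's moderated test over all 1117 regions with Benjamini-Hochberg adjustment, 73 regions (6.54%) were wider in KO at an adjusted p under 0.05 and 0 (0%) were narrower. At an unadjusted p under 0.05 the same test gave 400 wider and 4 narrower regions. After each library was centred on its own median width 3 regions passed, namely Cdkn2a/Cdkn2b, Cdkn2c and Tfap2b. The median difference was then -0.09 (log2), with 436 of the 1117 regions above 0, so this centring took away more than the median difference. Without any one of the 4 lines 0 regions passed, and with only regions made of 1 peak in each library 0 of 941 passed.

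The region with the largest difference lay at a cell-cycle inhibitor gene. At Cdkn2c, which encodes the p18 inhibitor of CDK4 and CDK6 (chr4:109652941-109668966), 14617 bp were covered in KO1 and 15759 bp in KO15, against 3698 bp in WT70 and 3163 bp in WT72. The difference was 2.15 ± 0.15 (log2, SE, adjusted p = 0.0157), or 1.68 after each library was centred on its own median width (adjusted p = 0.0239). Cdkn2a/Cdkn2b was the fifth of the named regions by size of the difference. At this locus, which encodes p16, p19ARF and p15 and is a classical Polycomb target (chr4:89267749-89311447), 37439 bp and 43699 bp were covered in KO1 and KO15 and 14390 bp and 13355 bp in WT70 and WT72. The difference there was 1.54 ± 0.11 (adjusted p = 0.0157). In both regions both KO lines lay above both WT lines, as they did at 792 of the 1117 tested regions (70.9%).

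The other leading regions lay at genes of varied function. Zbtb7c, a zinc-finger gene, had 10510 bp and 11052 bp in KO1 and KO15 against 2275 bp and 2789 bp in WT70 and WT72 (2.10 ± 0.17, adjusted p = 0.0208). Pura, which encodes a nucleic acid binding protein of neurons, had 9537 bp and 10204 bp against 3069 bp and 3424 bp (1.61 ± 0.15, adjusted p = 0.0221). Pthlh, which encodes parathyroid hormone-related protein, had 8445 bp and 8781 bp against 2728 bp and 3167 bp (1.55 ± 0.16, adjusted p = 0.0270). After centring, these 3 and Kif17/Sh2d5 no longer passed, at adjusted p from 0.0583 to 0.138.

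Narrower regions did not pass the test, and the 5 with the lowest p were Slc32a1, Arhgef19, Lhx3, Dusp9 and Runx3. At Slc32a1, which encodes the vesicular transporter of GABA and glycine, 8112 bp and 8168 bp were covered in the KO lines and 12019 bp and 10696 bp in the WT lines (-0.48 ± 0.12, adjusted p = 0.0760). At Lhx3, a LIM homeobox factor of motor neurons, the widths were 10847 bp and 10716 bp in KO and 12953 bp and 13049 bp in WT (-0.27 ± 0.10, adjusted p = 0.132). These regions went against the general shift, and the genotypes did not overlap at either. In width, both KO lines lay below both WT lines at 16 of the 1117 tested regions (1.43%) and above them at 792 (70.9%).

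**Figure D3:**
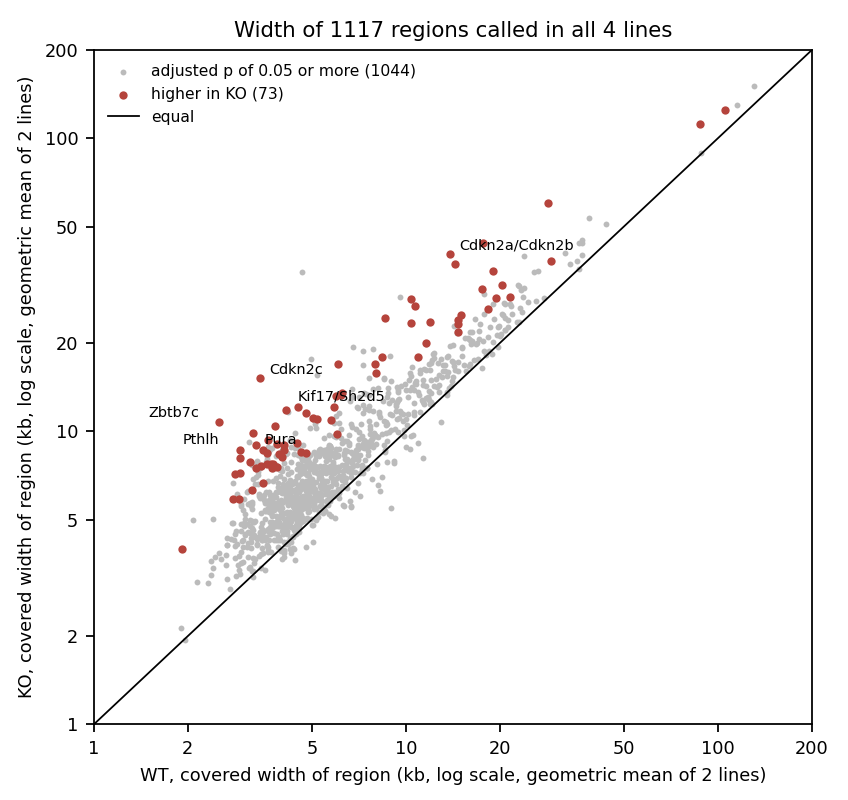
Covered width of each of the 1117 regions called in all 4 lines in WT (horizontal axis, kb) and KO (vertical axis, kb), both log scales and geometric means of 2 lines. Of the points 1044 lie above the line of equality, and the 73 regions wider in KO by limma are red.

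Wider regions included many regulators of development. Among the lists, 4 of 21 tested regions of neural progenitor and forebrain factors were wider in KO, 4 of 43 of neuron specification factors, 4 of 34 of mesoderm regulators, 3 of 10 of neural crest and surface ectoderm regulators 2 of 16 of primitive streak and endoderm regulators, 2 of 14 of voltage-gated ion channels and 1 of 22 of midbrain, hindbrain and caudal factors (Gbx2), against 6.54% of all regions tested. No tested region of the Wnt, Nodal and BMP, axon guidance, neurotransmitter or pluripotency lists passed as wider at an adjusted p under 0.05. Their median differences in width were above 0 all the same, from 0.23 (neurotransmitter) to 0.46 (axon guidance), beside 0.38 over all tested regions (log2). Zic1/Zic4, paired zinc-finger genes of the dorsal neural tube, had 56646 bp and 64263 bp covered in KO1 and KO15 against 28397 bp and 28614 bp in WT70 and WT72 (1.08 ± 0.08, adjusted p = 0.0157). Nr2f2 had 42544 bp and 45694 bp against 17246 bp and 18041 bp (1.32 ± 0.07, adjusted p = 0.0157). At Tfap2b, a factor of neural crest, 35125 bp and 39467 bp were covered in KO and 14968 bp and 13747 bp in WT (1.38 ± 0.10, adjusted p = 0.0157).

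Regulators of endoderm and of neurons showed the same. At Gata4, a factor of endoderm and heart, 34956 bp and 35396 bp were covered in KO and 18370 bp and 19782 bp in WT (0.88 ± 0.07, adjusted p = 0.0208). At Foxd1, a forkhead factor of diencephalon and kidney stroma, 22788 bp and 23947 bp were covered in KO and 9867 bp and 10933 bp in WT (1.17 ± 0.10, adjusted p = 0.0208). At Isl1 the region was called in all 4 lines, with 24177 bp and 25682 bp in KO and 15893 bp and 14292 bp in WT (0.73 ± 0.10, adjusted p = 0.0417), although the WT peaks did not reach the 1.5 kb around its start sites. The forebrain factors Lhx2 and Pou3f3 were also wider, at 0.55 ± 0.08 (adjusted p = 0.0437) and 0.64 ± 0.07 (adjusted p = 0.0278).

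**Figure D4:**
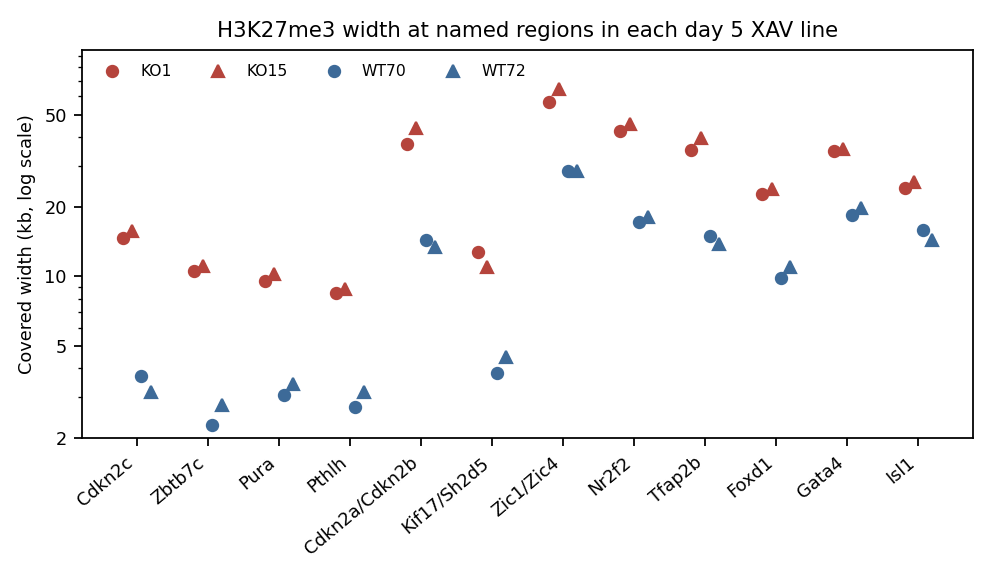
Covered width (vertical axis, kb, log scale) of 12 named regions in each of the 4 lines, KO in red and WT in blue, with circles for KO1 and WT70 and triangles for KO15 and WT72. In each region both KO lines lie above both WT lines, as at 70.9% of all tested regions, from Cdkn2c (14617 bp and 15759 bp against 3698 bp and 3163 bp) to Isl1 (24177 bp and 25682 bp against 15893 bp and 14292 bp).

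At the Hox clusters, arrays of homeobox genes that set position along the body axis and held the widest region tested, the peaks of KO were more continuous. Over the Hoxc cluster (chr15:102921103-103036852) each KO line had 1 peak covering 100% of it, whereas WT70 had 4 peaks covering 95.7% and WT72 had 9 covering 89.0%. Over Hoxd (chr2:74668310-74765142) KO1 had 1 peak, KO15 had 2, WT70 had 7 and WT72 had 8, with coverages of 100%, 97.4%, 77.6% and 82.3%. Over Hoxa the peak numbers were 2, 1, 5 and 6, and over Hoxb 4, 3, 6 and 7, in the order KO1, KO15, WT70 and WT72. In all 4 clusters both KO lines had fewer peaks and more covered bases than both WT lines. Covered width was greater in both KO lines than in both WT lines at 70.9% of all tested regions too, and peak numbers were not compared over all regions. In the test of width the regions of Hoxb (0.24 ± 0.03, adjusted p = 0.0437) and Hoxd (0.35 ± 0.03, adjusted p = 0.0208) passed, both under the general shift, while Hoxa (adjusted p = 0.0629) and Hoxc (adjusted p = 0.0816) did not.

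Ranks within libraries do not depend on a scale common to all peaks, and regions differed in rank between the genotypes in both directions. Each of the 1117 shared regions was given its percentile of total signal among those regions in its library. The mean percentile is thus fixed in each library, so rises at some regions require falls at others. A lower rank in KO need not mean less signal. Over these regions the percentiles correlated at 0.956 between the KO lines and 0.928 between the WT lines, and at 0.849 to 0.854 across genotypes, a description over regions that share libraries. By limma's test 47 regions (4.21%) ranked higher in KO and 61 (5.46%) ranked lower at an adjusted p under 0.05. With percentiles among all peaks of a library, 117 ranked higher and 6 lower. Of the 47, 25 were also wider, which is 53.2% of them and 34.2% of the 73, and of the 61 none was wider. Total signal is summed over the covered bases and grows with width, so width and rank are not independent measures.

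The regions with the largest gains in rank are given first. Hs3st4, a heparan sulfate sulfotransferase gene, lay at percentiles 51.6 and 57.2 in KO1 and KO15 and at 0.717 and 4.03 in WT70 and WT72 (52.0 ± 5.92 points, SE, adjusted p = 0.0202). Zfp536, a zinc-finger gene that restrains neuronal differentiation, lay at 51.2 and 54.4 in KO and 7.71 and 5.20 in WT (46.3 ± 5.79 points, adjusted p = 0.0232). Prss16, a serine protease gene of the thymus, had the largest difference at 61.4 ± 11.4 points (adjusted p = 0.0382), with 73.0 and 83.5 in KO but 32.3 and 1.34 in WT. Pura, Zbtb7c and Gadd45b, another stress-inducible Gadd45 gene, followed at 50.9 ± 7.80, 48.4 ± 8.29 and 43.8 ± 6.34 points. At all 6 regions both KO lines lay above both WT lines.

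Slc32a1 led the regions that ranked lower in KO. It lay at 26.8 and 22.9 in KO1 and KO15 and at 82.7 and 84.1 in WT70 and WT72 (-58.5 ± 4.62 points, adjusted p = 0.0113). Irf4, a lymphocyte transcription factor gene, lay at 5.02 and 2.24 in KO and 55.6 and 51.3 in WT (-49.8 ± 5.81 points, adjusted p = 0.0202). Nr4a2, which encodes the dopaminergic neuron factor NURR1, lay at 24.6 and 12.5 in KO and 64.9 and 61.0 in WT (-44.4 ± 6.96 points, adjusted p = 0.0307). Arhgef19, Prob1/Mzb1 and Socs3, a suppressor of cytokine signalling, differed by -56.9 ± 8.72, -43.3 ± 5.79 and -42.7 ± 7.32 points. At none of these 6 regions did the KO and WT lines overlap, as at 28.7% of all tested regions with KO above WT and 32.6% with KO below.

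**Figure D5:**
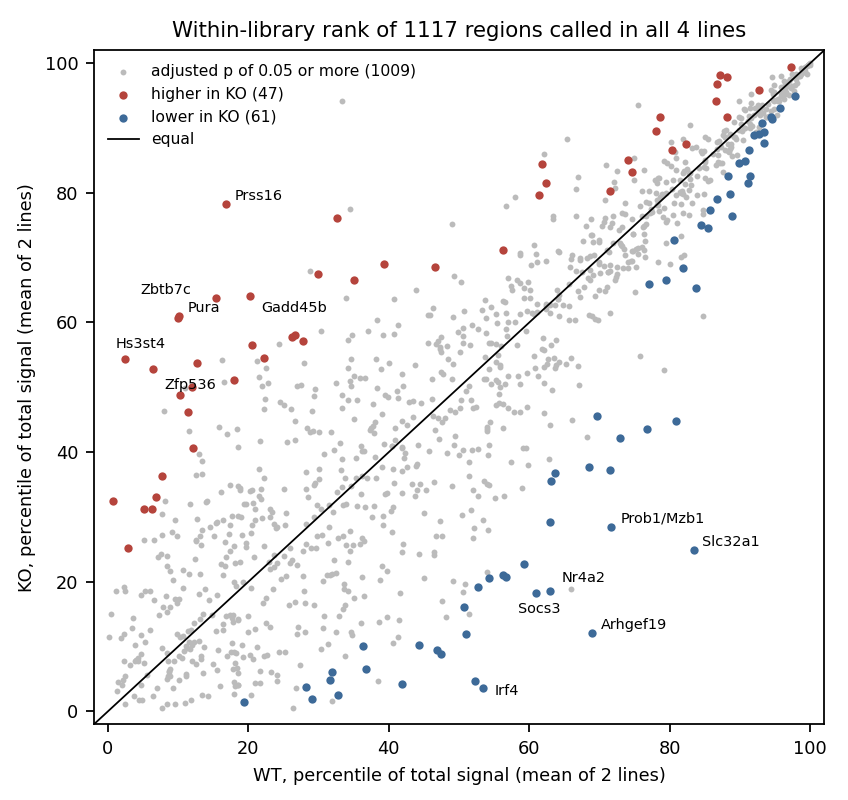
Percentile of total signal of each of the 1117 shared regions within its library, as the mean of 2 WT lines (horizontal axis) and 2 KO lines (vertical axis). The 47 regions ranked higher in KO (red) and the 61 ranked lower (blue) by limma lie on opposite sides of the line of equality, with Slc32a1 at 82.7 and 84.1 in the WT lines and 26.8 and 22.9 in the KO lines.

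Counts in the gene lists are to be read against the 4.21% of all tested regions that ranked higher in KO and the 5.46% that ranked lower. Among neurotransmitter genes 4 of 25 tested regions ranked lower in KO and 0 higher, namely Slc32a1, Chat/Slc18a3, which encode the enzyme and the vesicular transporter of acetylcholine, Grin2c and Adra1d. Among neuron specification factors 3 ranked higher (Atoh1, Isl1 and Nkx6-1) and 4 lower (Gata2, Lhx3, Nkx6-2 and Olig2). Midbrain, hindbrain and caudal factors had 3 of 22 lower (Barhl1, Irx6 and Pax5) and 0 higher. Forebrain factors had 3 of 21 higher, with Pax6 at 94.5 and 93.7 in KO against 86.2 and 86.8 in WT (7.62 ± 0.63 points, adjusted p = 0.0113), and 1 lower, Emx2 (-30.7 ± 6.33 points, adjusted p = 0.0459). Mesoderm regulators had 1 higher (Nr2f2) and 3 lower (Alx4, Hand1 and Tbx4), and neural crest regulators had 2 higher (Msx2 and Tfap2b) and 1 lower (Dlx3). Of axon guidance genes Nrp1 ranked higher and Ntn1 and Slit1 lower, of Wnt genes Wnt5a ranked higher, and of endoderm regulators Sox17 ranked higher.

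These calls rested on total signal and on both KO lines. With the height of the peak in place of its total signal 0 regions passed in either direction, at 70 higher and 80 lower with an unadjusted p under 0.05. With percentiles taken among all peaks of a library the calls split into 117 higher and 6 lower, and without KO1 or without KO15 0 passed in either direction, while without WT70 95 were higher and 83 lower and without WT72 54 were higher and 29 lower.

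Of 11 genes that the study examined one by one, chosen by it in part on these samples, 4 had a promoter peak in all 4 lines. In the study's ChIP-qPCR of TET1 and SUZ12, Npr3 served as the negative control. Cspg4, Npas4, Oxtr, Gal and Ngb were examined there for DNA methylation, not for H3K27me3. Kif17 and Sh2d5, a neuronal kinesin gene and an adaptor gene in 1 region on chromosome 4, had 12796 bp and 11006 bp covered in KO and 3831 bp and 4485 bp in WT (1.52 ± 0.16, adjusted p = 0.0278), and ranked higher in KO by 38.5 ± 6.05 points (adjusted p = 0.0307). Npr3, which encodes the natriuretic peptide clearance receptor, had 7010 bp and 7288 bp against 2846 bp and 2824 bp (1.33 ± 0.15, adjusted p = 0.0278) and ranked higher by 29.7 ± 4.77 points (adjusted p = 0.0315). Oxtr, the oxytocin receptor gene, had promoter peaks of 4822 bp and 6022 bp in KO and 4700 bp and 2919 bp in WT and passed neither test (adjusted p = 0.245 for width and 0.647 for rank). Brsk2, a neuronal kinase gene, was called in KO1 only, and Npas4, an activity-dependent transcription factor gene, in KO15 only, at percentile 3.21. Bdnf, Tubb3, Gal, Ngb and Cspg4 had no promoter peak in any of the 4 lines.

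Regions of the deposited lists that were called in all 4 lines are set here beside the 6.54% of all tested regions that were wider in KO. Of 334 tested regions with a gain after day 0 without XAV, 21 (6.29%) were wider, and of 269 lost and then gained, 16 (5.95%). Of 318 lost on day 0 and recovered without a later gain 30 (9.43%) were wider, and in this list 17 ranked higher and 26 lower in KO. The gains under XAV, a list selected on these libraries, had 65 of 726 wider (8.95%), 44 ranked higher and 6 lower.

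To ask whether the genotype difference itself changed with XAV, the 8 KO and WT libraries of day 5 with and without XAV were fitted together over the 862 regions called in all 8. The same 4 lines were sampled in both conditions, but by the study's data KO and WT cells differed in germ layer without XAV. Genotype and cell type cannot be told apart there. In width the median difference between KO and WT was 0.35 with XAV and 0.27 without, and 0 regions (0%) passed in either direction by limma (lowest adjusted p = 0.0625), with 68 larger and 41 smaller at an unadjusted p under 0.05. In rank the difference was larger with XAV at 58 regions (6.73%) and smaller at 57 (6.61%). With the line as a block, which pairs the libraries of a line, 20 and 17 regions passed, and of those 37 regions 36 had also passed without the block.

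The region at T, or brachyury, the primitive streak gene induced by Wnt signalling (chr17:8423875-8443161), had the lowest p. Without XAV it ranked at percentiles 9.99 and 15.9 in KO1 and KO15 and at 81.3 and 81.8 in WT70 and WT72. With XAV it ranked at 84.2 and 81.6 in the KO lines and 85.0 and 84.0 in the WT lines, so that the lines of both genotypes overlapped. The change in the KO minus WT difference was 67.0 ± 4.44 points (adjusted p = 0.000844 without the block and 0.0231 with it). Its width behaved alike, at 4636 bp and 4850 bp in KO against 9318 bp and 10557 bp in WT without XAV and 13402 bp and 12835 bp against 11922 bp and 8675 bp with XAV, but did not pass (adjusted p = 0.0859).

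At other regions the difference between the genotypes was larger without XAV or with it. Rtn4rl2, a Nogo receptor family gene, ranked at 68.9 and 64.3 in KO and 0.929 and 0.697 in WT without XAV, and at 64.1 and 56.8 in KO and 70.2 and 64.6 in WT with XAV. Slc32a1 ranked at 62.6 and 57.8 in KO and 78.4 and 73.4 in WT without XAV, and at 15.8 and 13.8 in KO and 78.0 and 79.9 in WT with XAV. At Cdkn2a/Cdkn2b the lines of both genotypes overlapped in width without XAV, with 21154 bp and 19843 bp covered in KO and 18729 bp and 26806 bp in WT. The test of its change in width gave 1.67 ± 0.25 (log2, adjusted p = 0.0725 without and 0.252 with the block), and that in rank passed.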

How the data were processed

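H3K27me3 CUT&RUN peaks of 4 libraries (KO1, KO15, WT70, WT72; day 5 XAV) were analysed, with 26 further H3K27me3 libraries for defining regions. Per the labels and methods, the authors trimmed reads (Trim Galore) and aligned them with Bowtie to GRCm38.p6 (mm10). Duplicate reads were removed by Picard, and each library had its own peaks called by SEACR in stringent mode against IgG (version not given in the sources used here). The deposited values are a signal in 2 columns, total over the peak and height at its highest point, without scaling for library size, so only ranks within a library were used. Read depth is not given by the files, so no counting interval is given; the number of peaks per library stands in its place. The sequencer used for each library is not given in the sources used here. Deposited region lists, made by the authors with DiffBind 3.0.15, hold positions only.

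Peaks of 30 libraries were merged, and regions called (at least 1 bp) in 2 or more were kept. Promoters were 1.5 kb to either side of start sites of 21842 protein-coding genes (GENCODE M21); sequences were RefSeq's. 0 peaks ran past a chromosome end. log2 widths and percentiles were tested with limma 3.58.1 (R 4.3.3, trended eBayes, Benjamini-Hochberg 0.05). On simulated data the test of KO against WT recovered 0% of changed regions at a difference of 0.5 (log2 width) or 10 points. It recovered 66% at 1 (log2 width) and 47.5% at 20 points, so smaller differences can go uncalled. Covered bases and peak numbers had exact permutation tests; presence and list shares none. P-values measure the spread between 2 lines per genotype. Line numbers pair libraries with and without XAV by design; deviations of the lines correlated at 0.0053 (KO) and 0.0293 (WT) for width and 0.135 and -0.000538 for rank. Alternatives were scalings, peak numbers, region definitions, windows, leaving out each line and the line as a block.

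Named genes were fixed by rule: the 12 regions of highest mean percentile called in both KO lines only and up to 8 of the opposite; the 6 largest differences per direction past the threshold at promoters, or the 5 lowest p where fewer than 3 passed; the 4 lowest p per direction for the XAV difference; up to 4 genes per list by difference in called lines; and all genes examined singly by the study. Genes past a test in a list are named beside these. Members and lists were chosen with earlier results of these data known. Some results that the rule names are not reported here. Sequence windows were limited to those inside the region and to bases before the start.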

Additional observations from a re-analysis of the deposited data

Results flagged for a closer look

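The difference between KO and WT in percentile differed between day 5 with and without XAV at 115 regions by limma's interaction test, larger with XAV at 58 and smaller at 57. With the libraries of a line paired by a block, 37 regions passed, 20 larger and 17 smaller, and without KO1 6 were larger and 0 smaller. Regions of lowest p in each direction follow, 3 larger and 4 smaller, as the change in the KO minus WT difference in points with its SE and the adjusted p without and with the line as a block. At T the change was 67.0 ± 4.44 (0.000844 and 0.0231). At Col13a1, a collagen gene, it was 69.2 ± 5.86 (0.00196 and 0.0290), with KO at 2.09 and 0.465 and WT at 58.1 and 59.1 without XAV. At Cdkn2a/Cdkn2b it was 18.1 ± 2.03 (0.00661 and 0.0231).

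In the other direction the change was -23.6 ± 1.98 at Pax5 (0.00196 and 0.0315), a factor of the midbrain-hindbrain boundary, where KO lay above WT without XAV (93.8 and 92.7 against 79.6 and 82.1) and below it with XAV (77.4 and 78.2 against 90.5 and 87.5). It was -72.7 ± 6.68 at Rtn4rl2 (0.00266 and 0.0290), -48.5 ± 5.50 at Slc32a1 (0.00661 and 0.0474) and -70.3 ± 8.27 at Rfx4 (0.00693 and 0.0474), a factor of the developing brain, with WT at 9.06 and 22.5 without XAV and 70.8 and 63.8 with it. The cause of these changes was not tested, and by the study's data KO and WT cells differed in germ layer without XAV. Groups of 2 lines are too small for a test of outlying samples.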

How the results depend on the processing

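Limits: each genotype had 2 lines and 1 library per line, depth is unknown, and peak presence follows the number of peaks called. The regions called in both KO lines only numbered 150 and those in both WT lines only 71 with equal peak numbers. Leaving out 1 line, which can only raise these counts, gave 305 to 844 and 17 to 74. KO1 against WT72 alone, chosen after seeing the data, gave 341 and 167. Wider regions numbered 3 after centring, 0 with single-peak regions and 123 with 8 libraries in the fit, which also called 1 narrower, and leaving out 1 line gave 0 to 0. Higher and lower ranks numbered 0 and 0 by height, 117 and 6 among all peaks, 31 and 49 with 8 libraries, 39 and 47 with equal peak numbers (chosen after seeing the data), and 0 to 95 and 0 to 83 without 1 line. With an arm of 1 library, that library is assumed to vary like the others. For the change with XAV, the line as a block paired the libraries and gave 20 larger and 17 smaller rank differences against 58 and 57, and 0 for width as without it. Leaving out a line gave 6 to 22 and 0 to 19, and 0 to 1 for width. The cause of these changes was not tested.

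The ratio of KO to WT stayed between 1.11 and 1.58 for peak numbers and between 1.45 and 1.95 for covered bases when 1 line was left out. Lists with a higher share in KO numbered 11 to 14 of 16. With equal peak numbers the gap over all promoters shrank from 18.4 to 5.19 percentage points, and for Wnt genes it turned from 4.62 to -0.769. For midbrain, hindbrain and caudal factors it turned from -2.08 to 2.08 with a window of 500 bp, and ranged from -6.25 to 2.08 when 1 line was left out. Of the named regions' values under alternatives, 49 of width and 40 of rank kept their side of the threshold, 32 and 51 no longer passed, and 0 changed direction. The 49 include all values of Slc32a1, Arhgef19, Lhx3, Dusp9 and Runx3, whose widths had not passed to begin with and so could not cease to pass. All 32 came from the named wider regions.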

Other observations

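Gene groups outside the lists also appeared among the 73 wider regions, named here after their values were seen. Polycomb genes were among them: the region Bmi1/Commd3/Spag6, which includes Bmi1, a subunit of Polycomb repressive complex 1, was wider by 1.44 (log2, adjusted p = 0.0464), and at Sfmbt2, a Polycomb-related gene of the placenta, the difference was 1.14 (adjusted p = 0.0469). The immediate early genes Egr3 and Egr4 were wider by 1.12 (adjusted p = 0.0336) and 1.29 (adjusted p = 0.0437). Grb10, an imprinted growth regulator, was wider by 1.33 (adjusted p = 0.0437), and Trp73/Wrap73, which includes the p53 family gene Trp73, by 1.51 (adjusted p = 0.0468). None of these passed after centring on the median width.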
